A study of Mus musculus with 6 samples.

Results

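Basement membrane genes were examined in RNA-seq data of NOR-10 cells, an established mouse line labelled as skeletal muscle fibroblasts. The list holds 31 genes, found by their symbols among the 34745 genes of the deposited table: the chains of collagen IV, the collagens XV and XVIII, the laminin chains, the nidogens, perlecan, agrin and proteins that sit beside or bind them. Its members are grouped here by the known role of their proteins. The control group received PBS (libraries Con-1 to Con-3) and the D-gal group received D-galactose at 20 mg/mL for 3 days (libraries Dgal-1 to Dgal-3), so that each group held 3 libraries. All 6 libraries come from 1 cell line with no other genotype or agent, and the labels do not say whether replicates were separate cultures, so p-values measure the spread between these samples, which may be technical.

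The basement membrane is a thin sheet of matrix that surrounds every muscle fibre. It is built from a laminin network and a collagen IV network. Each laminin molecule joins an alpha, a beta and a gamma chain, and each collagen IV molecule joins collagen IV alpha chains, which can differ. Nidogens and perlecan tie both networks together, and receptors such as integrins and dystroglycan hold the laminins to the cell surface. Fibroblasts are known to supply much of the collagen IV and nidogen of muscle.

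Collagen IV genes lie in head-to-head pairs, and the upstream sequences of the pairs are shown because the members of a pair can be compared as neighbours. In GENCODE M21 (GRCm38), Col4a1 (ENSMUSG00000031502, minus strand, chromosome 8, 11198423 to 11312826) and Col4a2 (ENSMUSG00000031503, plus strand, 11312805 to 11449287) start 21 bases apart and their first exons overlap. The stretch chr8:11312801-11312830 (RefSeq, GRCm38.p6) is given on both strands, with the overlap of the exons in capitals.
Col4a1: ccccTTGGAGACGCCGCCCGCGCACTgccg
Col4a2: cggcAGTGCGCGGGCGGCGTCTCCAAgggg
Col4a5 (plus strand) and Col4a6 (minus strand) start 1309 bases apart on chromosome X. Their sequences just before the annotated first exons are chrX:141475169-141475384 and chrX:141474077-141474326, with the GC box GGGCGG in capitals on whichever strand it lies.
Col4a5: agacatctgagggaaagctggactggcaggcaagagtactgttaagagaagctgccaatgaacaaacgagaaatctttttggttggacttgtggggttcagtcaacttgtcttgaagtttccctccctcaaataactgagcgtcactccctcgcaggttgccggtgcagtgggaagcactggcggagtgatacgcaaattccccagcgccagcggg
Col4a6: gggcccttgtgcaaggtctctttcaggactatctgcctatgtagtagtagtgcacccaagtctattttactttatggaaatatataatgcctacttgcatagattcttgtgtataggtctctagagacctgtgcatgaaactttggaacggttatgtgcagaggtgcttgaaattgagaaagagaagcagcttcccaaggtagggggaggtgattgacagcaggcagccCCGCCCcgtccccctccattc
Nid1 is added because it was the member with the highest FPKM in control cells (a level per gene length, explained with the chain sums), as chr13:13437352-13437550 on the plus strand, marked in the same way.
Nid1: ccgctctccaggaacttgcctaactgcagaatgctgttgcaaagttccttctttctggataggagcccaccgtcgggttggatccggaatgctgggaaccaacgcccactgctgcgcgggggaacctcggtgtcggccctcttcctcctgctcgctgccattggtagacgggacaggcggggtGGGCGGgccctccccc

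The RefSeq table gave a window for 21 of the 31 members, running from 250 bases before to 50 bases after the start. The windows of Col4a1 and Col4a2 had a GC content of 74.0% and 73.7%, those of Nid1, Col4a5 and Col4a6 had 64.7%, 52.7% and 48.3%, and the median of all windows was 52.7%. Both strands were searched for the GC box GGGCGG, which occurred 3 times in the Col4a2 window and 1 time in each of the other 4, and 35.7% of all 32851 windows held it. The windows of Col4a1 and Col4a2 share 78 bases, and the Col4a1 match is also among those of the Col4a2 window. For Col4a5 the match lies outside the printed stretch. The CCAAT box was found 1 time in each window except that of Col4a6, beside 37.4% of all windows. The letters of the TATA box, TATAAA, were in none of the 5, beside 13.6% of all windows. These matches describe the sequence and do not mark a factor's site.

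Control libraries summed to 16876087 to 20830349 counts and D-gal libraries to 13759108 to 15157064. Members took up 0.7074% to 0.7298% of a control library and 0.6822% to 0.6878% of a D-gal library. In the text, a normalized count is the deposited count put on the scale of an average library by edgeR's TMM factors. Adjusted p-values are Benjamini-Hochberg values of edgeR's quasi-likelihood test over all 13407 genes tested. The fibroblast markers Col1a1, Col1a2, Pdgfra and Pdgfrb were abundant, whereas Lum had 1 count in 1 library. The summed normalized count of the 8 fibroblast markers ranged from 97891 to 100378 under PBS and from 61955 to 65244 under D-gal, with 5 of the 7 tested lower and Pdgfrb higher. Of cells that also make basement membrane, endothelial markers (6 genes) summed to 75.9 to 90.6 in control and 51.8 to 56.8 in D-gal libraries, with Cdh5, Tie1 and Emcn at or near 0 and Tek lower. The myogenic list (7 genes) summed to 51.4 to 65.3 and 29.2 to 42.6, with Pax7, Myod1 and Myf5 at 0 and Des lower, and the epithelial list (5 genes) to 119 to 146 and 29.5 to 47.0, with Epcam at 0 and Cdh1 lower. The mural list (5 genes) summed to 957 to 987 and 1167 to 1366, with Notch3 higher and Rgs5 lower. The Schwann list (4 genes) summed to 47.1 to 69.4 and 62.8 to 102, and the adipocyte list (4 genes) to 16.2 to 27.9 and 20.2 to 33.7. The macrophage list (4 genes) summed to 67.7 to 282 under PBS, with the highest value in Con-1, and to 71.8 to 90.6 under D-gal. The part of these shifts in the results was not tested, and fewer cells that express a gene cannot be told apart from less of its RNA per cell.

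Of the 31 members, 23 passed the filter on low counts and 15 of these had an adjusted p-value under 0.05 (65.2%), against 34.8% of all genes tested. D-gal cells had more of 4 of them, 17.4% of the 23, which is near the 16.9% of all genes tested that were higher. D-gal cells had less of 11, 47.8% of the 23, against 17.8% of all genes tested that were lower. The study's second criterion, a change of 2-fold or more, left 4 of the 23 members, against 4.21% of all genes tested. Fras1 was higher (2.37% of all genes tested), and Col15a1, Lama2 and Lama4 were lower (1.83%). The median log2 fold change of the 23 was -0.31, beside 0.00 for all genes tested. In 16 of the 23 (12 lower and 4 higher) all D-gal libraries lay on one side of all control libraries, as did 49.1% of all genes tested. For each of the 15 the exact permutation test gave p = 0.1, the smallest value that 3 against 3 libraries allow. The members did not move as a block. The summed normalized count of all 31 was 121583 ± 2143 (SD, n = 3) under PBS and 113822 ± 178 under D-gal. It was lower in every D-gal library than in any control library. The sums of the classes differed in direction: those of collagen IV and the Fraser complex were higher, and those of the laminin beta chains and the receptor Dag1 overlapped. Lower sums were found for the laminin alpha chains, the laminin gamma chains and the collagens XV and XVIII. The sums of the linkers and proteoglycans and of the other associated proteins were lower as well.

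**Figure D1:**
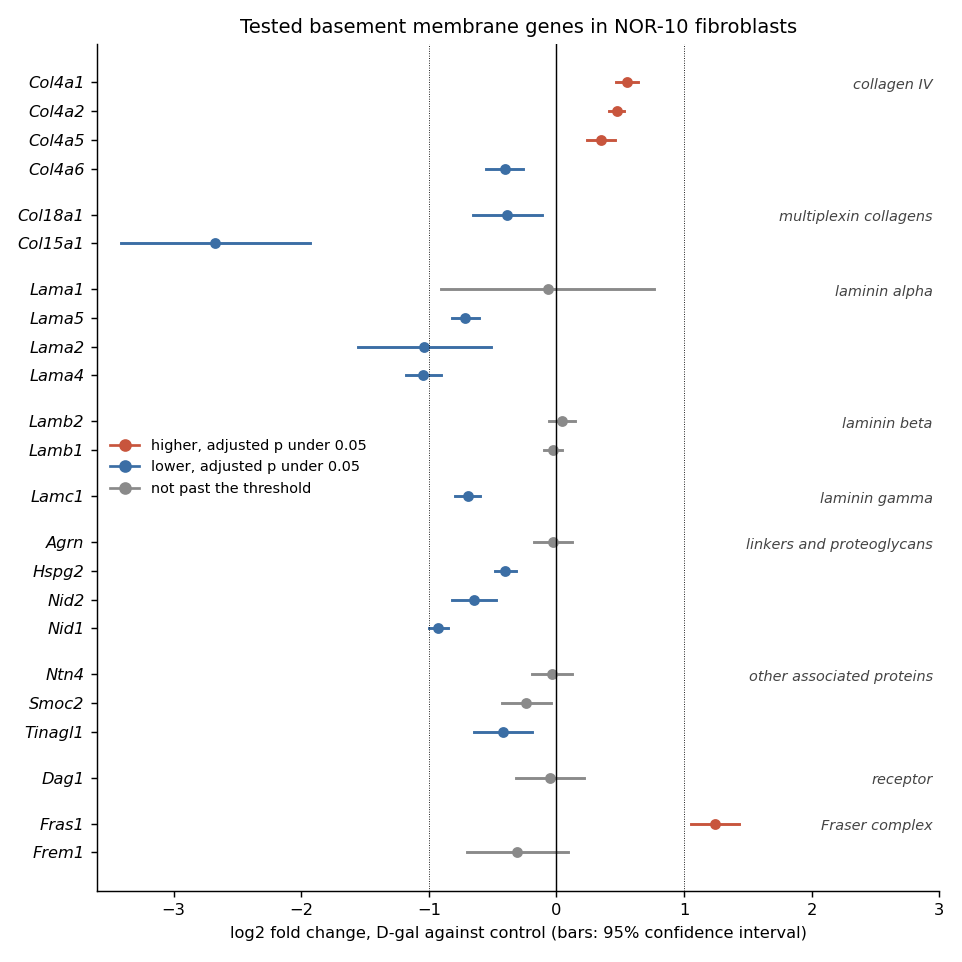
Log2 fold change of the 23 tested basement membrane genes, D-gal against control, by class, with bars for the 95% confidence interval of edgeR's fit and dotted lines at a log2 fold change of 1 in size. The 3 major collagen IV genes and Fras1 lie right of 0, the 11 genes in blue lie left of it, and the laminin beta genes straddle it.

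Of the 4 collagen IV genes tested, 3 rose and Col4a6 fell. Col4a1, which encodes the alpha1 chain of the ubiquitous collagen IV molecule, had 20698, 24340 and 18839 counts in control and 24624, 26108 and 22802 in D-gal libraries. After normalization all D-gal libraries were higher than all control libraries, at 18974 ± 913 and 27873 ± 557 (SD, n = 3 each). The log2 fold change was 0.55 (SE 0.037, adjusted p = 3.46e-05), a 1.47-fold difference. Col4a2, its partner in the same molecule and its neighbour on chromosome 8, had 17925, 19740 and 15452 counts in control and 19210, 20282 and 18182 in D-gal libraries. Its normalized counts were 15778 ± 286 and 21872 ± 296 with no overlap, and its log2 fold change of 0.47 (SE 0.026, adjusted p = 1.35e-05) was close to that of Col4a1. The first exons overlap by 22 bases, and whether the counting used the strand is not given in the sources used here.

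Col4a5, the alpha5 chain found in basement membranes of several tissues, had 3206, 3580 and 2875 counts in control and 3052, 3528 and 3063 in D-gal libraries. The deeper control libraries hid the difference in raw counts, and the normalized counts of 2873 ± 69.0 and 3656 ± 216 did not overlap (log2 fold change 0.35, adjusted p = 0.00103). Col4a6, the alpha6 chain that assembles with alpha5 and shares its locus head to head, had 503, 551 and 449 counts in control and 296, 309 and 284 in D-gal libraries. All its D-gal libraries were lower, with 447 ± 7.85 against 337 ± 5.01 normalized counts and a log2 fold change of -0.41 (adjusted p = 0.00178). The Col4a5 to Col4a6 pair thus moved in opposite directions: the log2 ratio of their normalized counts was 2.67, 2.70 and 2.68 in control and 3.37, 3.51 and 3.43 in D-gal libraries. Col4a3 and Col4a4, the chains that join alpha5 in the glomerulus and a few other sites, start 72 bases apart on chromosome 1 and had at most 4 and 6 counts in any library.

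Both multiplexins, collagens of the outer face of the basement membrane that carry a sugar chain and an anti-angiogenic end fragment, were lower. Col15a1 (ENSMUSG00000028339, chromosome 4, 47208161 to 47313167), whose protein bridges the basement membrane and the fibrillar matrix in muscle, had 60, 53 and 59 counts in control and 10, 4 and 7 in D-gal libraries. Every D-gal library was far below every control library, at 51.7 ± 8.18 and 8.01 ± 3.45 normalized counts. This was the largest change among the 23 members in the edgeR fit (log2 fold change -2.67, SE 0.32, adjusted p = 5.07e-04), and it rests on few counts. Col18a1, the source of endostatin, had 365, 395 and 329 counts in control and 212, 268 and 177 in D-gal libraries. Its normalized counts did not overlap (324 ± 7.27 and 248 ± 40.6), but its call was near the threshold (log2 fold change -0.38, adjusted p = 0.0365). Leaving out any library except Dgal-2 ended the call (adjusted p = 0.0746 to 0.0967), and without Dgal-2 the log2 fold change was -0.52.

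**Figure D2:**
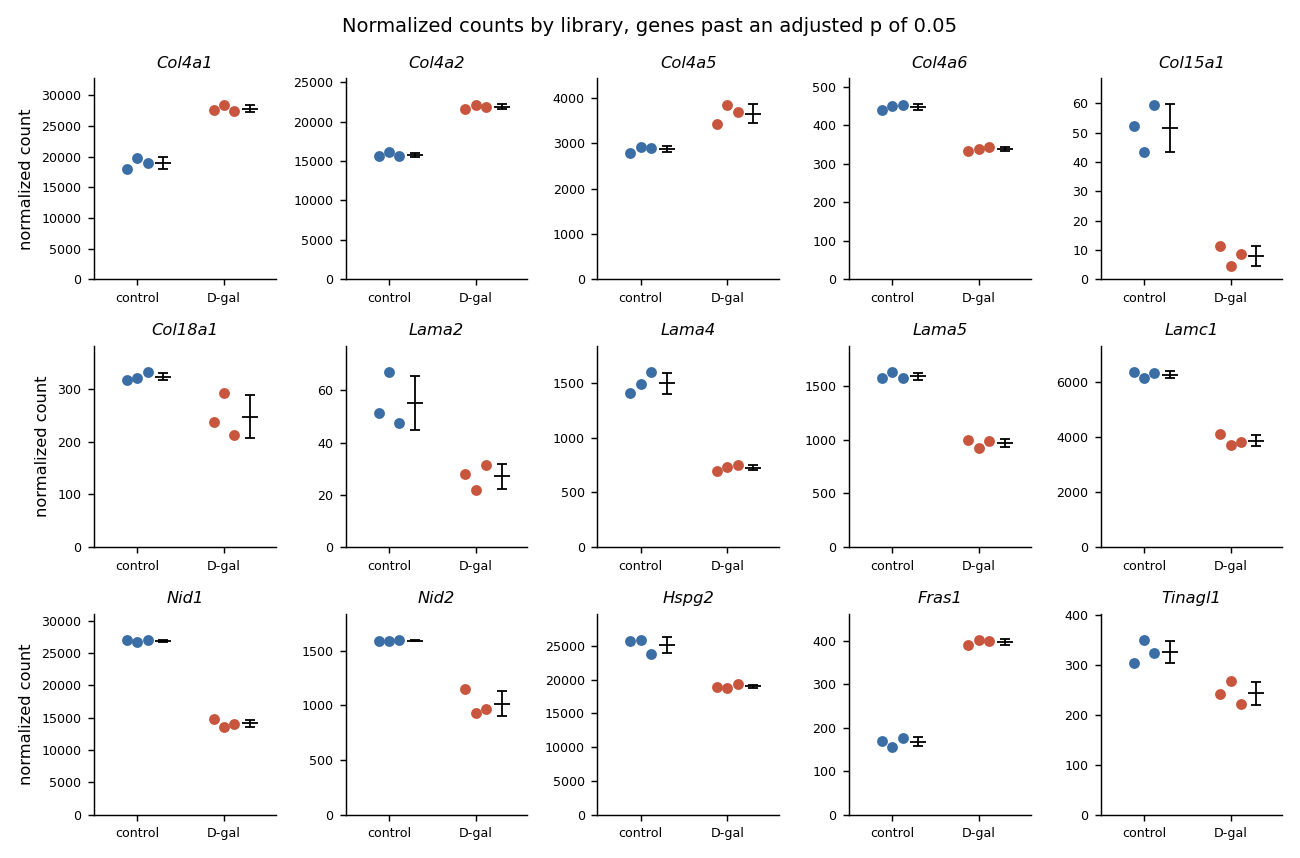
Normalized counts of the 15 members past an adjusted p-value of 0.05, by library, with the mean and SD of the 3 libraries beside the points and each axis starting at 0. Col4a1, Col4a2, Col4a5 and Fras1 are higher in every D-gal library than in any control library, and the other 11 are lower.

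Laminin alpha chains, which carry the sites for cell receptors, were lower in 3 of the 4 genes tested. Lama4 (ENSMUSG00000019846, chromosome 10, 38965515 to 39110188), the alpha4 chain of vessels and mesenchymal cells, had 1612, 1820 and 1579 counts in control and 622, 668 and 620 in D-gal libraries. Its normalized counts were 1495 ± 95.3 and 725 ± 24.8 with no overlap (log2 fold change -1.04, SE 0.060, adjusted p = 1.52e-05). Lama5, the alpha5 chain widespread in adult tissues, had 1801, 1992 and 1556 counts in control and 890, 845 and 816 in D-gal libraries. The groups were again apart, at 1589 ± 31.8 and 968 ± 40.2 normalized counts (log2 fold change -0.71, SE 0.046, adjusted p = 2.83e-05).

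Lama2, the main alpha chain of the muscle fibre basement membrane and the gene of merosin-deficient muscular dystrophy, was expressed at a low level. It had 59, 82 and 47 counts in control and 25, 20 and 26 in D-gal libraries. The lowest control library stood above the highest D-gal library after normalization (55.3 ± 10.3 and 27.1 ± 4.82), with a log2 fold change of -1.04 (SE 0.23, adjusted p = 0.00911). Lama2 and Lama4 sat at the edge of the 2-fold criterion: Lama2 was under it without Con-2 (-0.87) or Dgal-2 (-0.90), and Lama4 was just under it without Con-3 (-0.996). In GENCODE M21, 631 bases of the Lama2 exons overlap another annotated gene, Gm48084. Lama1, the alpha1 chain of early development, had 12 to 24 counts per library and overlapping groups (log2 fold change -0.07, 95% confidence interval -0.90 to 0.77, adjusted p = 0.906). Lama3, the alpha3 chain of epithelia, had 1 to 13 counts and was not tested.

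Of the 3 beta and gamma chains of laminin tested, Lamc1 passed the threshold. Lamb1, the beta1 chain, had 9686, 10552 and 8373 counts in control and 7589, 7375 and 6988 in D-gal libraries. The normalized counts overlapped, and the interval of its log2 fold change was narrow around 0 (-0.03, 95% confidence interval -0.10 to 0.04, adjusted p = 0.506). Lamb2, the beta2 chain enriched at the neuromuscular junction and in the glomerulus, had 6587, 7283 and 5566 counts in control and 4963, 5610 and 5080 in D-gal libraries, with a log2 fold change of 0.04 (95% confidence interval -0.06 to 0.15, adjusted p = 0.512). Lamc1 (ENSMUSG00000026478, chromosome 1, 153218922 to 153332786), the gamma1 chain shared by most laminins, had 7265, 7511 and 6244 counts in control and 3637, 3378 and 3158 in D-gal libraries. All D-gal libraries were lower, at 6255 ± 110 and 3859 ± 202 normalized counts (log2 fold change -0.70, SE 0.042, adjusted p = 1.99e-05). Lamb3 and Lamc3, chains of epithelial and of neural and vascular laminins, had at most 14 and 5 counts and were not tested.

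To compare different chains with each other, their levels were taken per length, as FPKM (the deposited value scaled to gene length and library total). The summed FPKM of collagen IV chains was 317 ± 9.95 (SD, n = 3) in the control and 460 ± 9.70 in the D-gal group. The sum of laminin alpha chains was 13.8 ± 0.393 and 7.92 ± 0.189, and that of gamma chains 36.0 ± 0.646 and 22.8 ± 1.13. These 3 sums did not overlap between the groups, whereas the beta chains did, at 84.6 ± 1.79 and 87.3 ± 2.27 (exact permutation test, p = 0.2). In both groups the alpha chains had the lowest summed FPKM of the 3 laminin classes and the beta chains the highest.

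**Figure D3:**
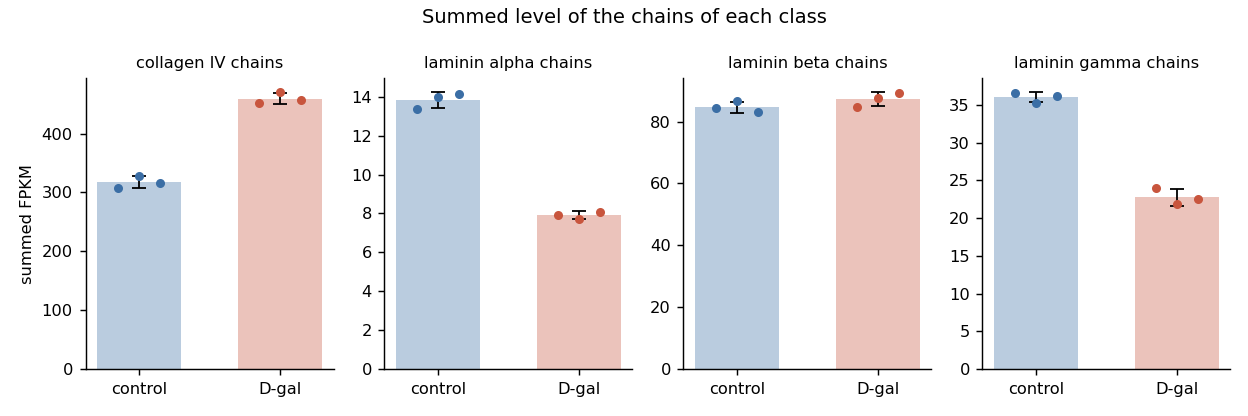
Summed FPKM of the collagen IV, laminin alpha, laminin beta and laminin gamma chains, with bars for the group mean, whiskers for the SD of the 3 libraries and points for each library. The collagen IV sum is higher in all D-gal libraries, the alpha and gamma sums are lower in all of them, and the beta sums overlap.

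The ratios of these sums followed. The summed FPKM of beta over gamma chains was 2.31, 2.45 and 2.29 in control and 3.53, 4.02 and 3.96 in D-gal libraries, and that of beta over alpha chains was 6.12 ± 0.220 and 11.0 ± 0.339. Gamma over alpha chains moved less, from 2.61 ± 0.109 to 2.88 ± 0.131, and the groups lay apart by a small margin. Collagen IV over laminin gamma was 8.43, 9.29 and 8.71 in control and 18.8, 21.5 and 20.3 in D-gal libraries. Each of these 4 ratios gave p = 0.1 in the exact permutation test.

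Within a class the leading chains kept their order. Of the summed collagen IV FPKM, Col4a1 made 49.9% ± 0.836 in control and 51.8% ± 0.380 in D-gal libraries, and Col4a2 made 42.6% ± 0.785 and 41.8% ± 0.320 with overlapping groups. The share of Col4a5 was 6.54% ± 0.0971 and 5.89% ± 0.256, although its level had risen, and that of Col4a6 was 1.01% ± 0.0240 and 0.538% ± 0.0108. Of the laminin alpha FPKM, Lama5 made 54.7% ± 1.67 and 59.6% ± 1.37, and Lama4 made 43.0% ± 1.59 and 37.4% ± 1.49, with no overlap for either. Lama2 held 1.29% ± 0.235 and 1.13% ± 0.174, with overlapping groups. Lama1 held 0.766% ± 0.287 and 1.30% ± 0.272 with no overlap, on 12 to 24 counts per library. Lamb2 stood at 53.6% ± 0.450 and 54.9% ± 1.91 of the beta chains, and Lamc1 made 99.79% to 99.96% of the gamma chains in the 6 libraries. The shares of Col4a1, Col4a5, Col4a6, Lama1, Lama4 and Lama5 each gave p = 0.1 in the exact permutation test.

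**Figure D4:**
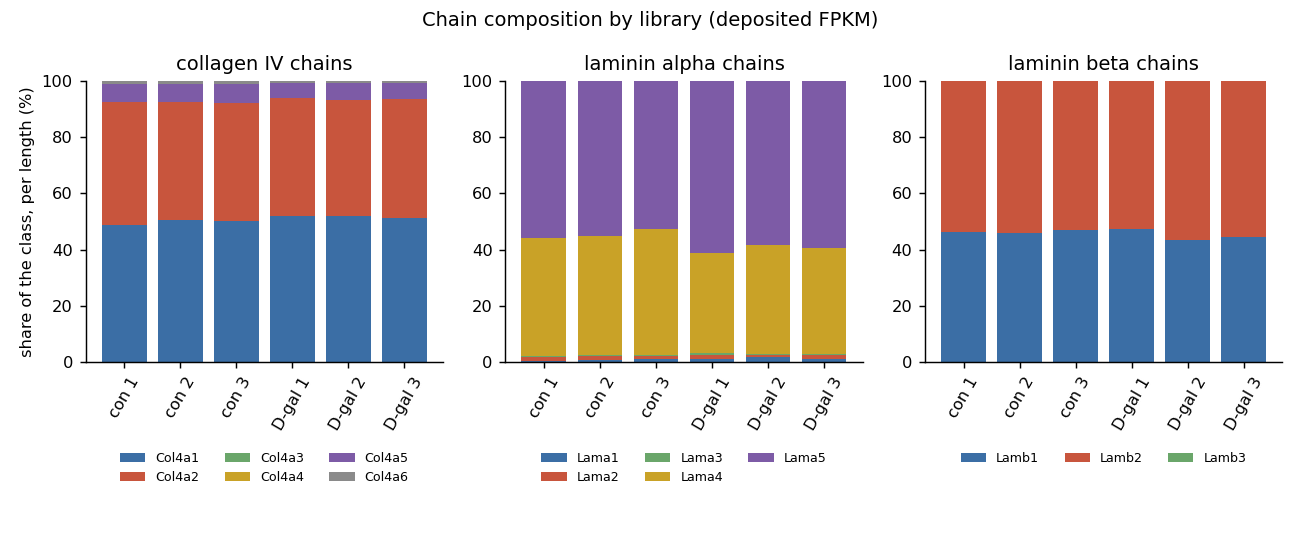
Share of each chain in the summed FPKM of its class, in percent, for each of the 6 libraries. Col4a1 and Col4a2 fill most of the collagen IV bars, Lama5 and Lama4 nearly all of the laminin alpha bars, and the purple Lama5 segment is larger in all D-gal bars than in any control bar.

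The nidogens and perlecan, which link the laminin and collagen IV networks, were lower. Nid1 (ENSMUSG00000005397, chromosome 13, 13437602 to 13512275), nidogen-1, had 30977, 32810 and 26723 counts in control and 13151, 12472 and 11708 in D-gal libraries. All D-gal libraries were close to each other and well below the control libraries, at 26918 ± 126 and 14162 ± 572 normalized counts. The log2 fold change of -0.93 (SE 0.032, adjusted p = 2.2e-06) is a 1.90-fold difference, just short of the 2-fold criterion. Nid2, nidogen-2, had 1828, 1943 and 1581 counts in control and 1026, 855 and 802 in D-gal libraries, and the groups did not overlap (log2 fold change -0.65, SE 0.076, adjusted p = 4.67e-04). In GENCODE M21, 437 bases (8.45%) of the Nid2 exons overlap Rtraf on the opposite strand, so part of its counts could belong to that gene. The log2 ratio of the Nid1 to the Nid2 normalized count was 4.08 in each control library and lower in every D-gal library, at 3.68, 3.87 and 3.87.

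Hspg2, perlecan, the large heparan sulfate proteoglycan of the sheet, had 29452, 31634 and 23544 counts in control and 16850, 17189 and 16014 in D-gal libraries. Its normalized counts of 25085 ± 1136 and 18992 ± 272 were apart (log2 fold change -0.40, adjusted p = 1.19e-04). Agrn, agrin, the proteoglycan that clusters acetylcholine receptors at the neuromuscular junction, had overlapping groups with 597 ± 12.6 and 585 ± 38.3 normalized counts (log2 fold change -0.03, 95% confidence interval -0.18 to 0.12, adjusted p = 0.754).

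The most abundant members changed places. On the FPKM scale the control order was Nid1 (262 ± 1.36), Col4a1 (158 ± 7.45), Col4a2 (135 ± 2.50) and Hspg2 (88.3 ± 4.18), and the D-gal order was Col4a1 (238 ± 5.30), Col4a2 (192 ± 3.27), Nid1 (141 ± 5.20) and Hspg2 (68.4 ± 1.02). Neighbours in these orders were separated in every library. The log2 ratio of the Col4a1 to the Nid1 normalized count was -0.58, -0.43 and -0.50 in control and 0.91, 1.07 and 0.96 in D-gal libraries. This difference of 1.48 was the widest of 10 within-library ratios computed between members. The 10 pairs were picked by hand, and pairs that were not computed can differ more. The difference was 1.25 for Col4a1 over Lamc1, 0.96 for Col4a1 over Hspg2, 0.67 for Lamb1 over Lamc1, 0.53 for Hspg2 over Nid1 and 0.33 for Lama5 over Lama4. It was small for Col4a1 over Col4a2 (0.08), whose groups still did not overlap, and for Lamb2 over Lamb1 (0.07), whose groups did. The exact permutation test gave p = 0.1 for 9 of the 10 ratios (adjusted p = 0.111 over the 10) and p = 0.4 for Lamb2 over Lamb1, so none passes a threshold of 0.05, which 3 against 3 libraries cannot reach.

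The Fraser complex, which anchors epithelium to the underlying tissue in the embryo, was split. Fras1 (ENSMUSG00000034687, chromosome 5, 96373955 to 96784728) had 195, 192 and 176 counts in control and 348, 368 and 332 in D-gal libraries. Its raw counts were already apart despite the deeper control libraries, and the normalized counts were 168 ± 10.7 and 397 ± 6.08. It was the only member higher by at least 2-fold in the edgeR fit (log2 fold change 1.24, SE 0.082, adjusted p = 2.99e-05). Its partner Frem1 had 88, 87 and 90 counts in control and 67, 55 and 47 in D-gal libraries, but the normalized counts overlapped (log2 fold change -0.31, adjusted p = 0.204). Frem2 had 0 to 4 counts and was not tested.

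Among the other associated proteins, Tinagl1, a secreted matricellular protein of the basement membrane, was lower. It had 349, 428 and 320 counts in control and 215, 245 and 184 in D-gal libraries, with normalized counts apart (326 ± 22.6 and 244 ± 23.0) and a log2 fold change of -0.42 (adjusted p = 0.0129). Smoc2, a calcium-binding matricellular protein, had 348 ± 23.1 and 295 ± 15.3 normalized counts that did not overlap, but missed the threshold (log2 fold change -0.24, adjusted p = 0.0581). Ntn4, netrin-4, which binds laminin gamma chains and disturbs their network, had overlapping groups (log2 fold change -0.04, 95% confidence interval -0.19 to 0.12, adjusted p = 0.724). Smoc1 and Papln, the latter encoding papilin, were at most 1 count in control libraries and had their counts mainly in Dgal-3 (8 of Smoc1) and Dgal-1 (18 of Papln), so that neither was tested.

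Dag1, dystroglycan, the receptor that binds laminin, perlecan and agrin through its sugar chains, had 3310, 4988 and 3942 counts in control and 3092, 3207 and 2973 in D-gal libraries. Its normalized count in Con-1 (2884) was the lowest of all 6 libraries, while Con-2 (4070) and Con-3 (3981) were the highest. The groups overlapped and the log2 fold change was -0.05 (adjusted p = 0.770). The result depended on Con-1: without it the log2 fold change was -0.19 with an adjusted p-value of 0.00912. Con-1 was also the library with the highest summed macrophage markers, and without it 15 members passed the adjusted p-value, with Dag1 gained and Col18a1 lost.

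To set the members beside the genes that act on them, 72 genes for receptors, modifying enzymes, other matrix proteins and proteases of the basement membrane were listed, of which 67 were tested. Of these, 14 were higher and 21 lower by the adjusted p-value (52.2%, against 34.8% of all genes tested), with a median log2 fold change of -0.06. Among 14 receptors tested, 4 were higher and 5 lower (64.3%). The extremes were both integrin alpha chains: Itga1, part of a collagen IV and laminin receptor, had 366 ± 16.2 and 778 ± 68.9 normalized counts (log2 fold change 1.09, adjusted p = 4.95e-05). Itga6, part of laminin receptors, had 126, 136 and 106 counts in control and 35, 30 and 24 in D-gal libraries (log2 fold change -1.69, adjusted p = 1.35e-04).

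Of 10 enzymes tested that add sugars to dystroglycan, 2 were higher, the O-mannosyltransferase genes Pomt1 (log2 fold change 0.46, adjusted p = 0.00443) and Pomt2 (0.17, adjusted p = 0.0474), and the other 8 did not pass. The share higher, 20%, is near the 16.9% of all genes tested. Among 14 genes that modify or crosslink chains, 4 were higher and 3 lower (50%, against 34.8% of all genes tested). The higher ones were P4ha1, Plod2, Plod3 and P3h1, which hydroxylate proline or lysine in collagens. The lower ones were P4ha2 (log2 fold change -0.31, adjusted p = 0.00108), P3h2 (-0.25, adjusted p = 0.00278) and Pxdn (-0.19, adjusted p = 0.00699). Of 14 other matrix proteins, 1 was higher and 4 lower (35.7%, against 34.8% of all genes tested). The higher one was Vwf, von Willebrand factor, with 8, 15 and 15 counts in control and 18, 45 and 32 in D-gal libraries (log2 fold change 1.66, adjusted p = 0.0161). Fbln1, fibulin-1, which binds nidogen and laminin, had 140 ± 41.4 and 59.1 ± 15.7 normalized counts (log2 fold change -1.25, adjusted p = 0.00785).

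Of 15 proteases and inhibitors tested, 3 were higher and 9 lower (80%, against 34.8% of all genes tested). The share higher, 20%, is near the 16.9% of all genes tested, and the share lower was 60% against 17.8%. The lower genes include the inhibitors Timp1 (log2 fold change -0.85, adjusted p = 1.45e-04) and Timp2 (-0.26, adjusted p = 2.66e-04). The inhibitor Timp3 did not pass (0.02, adjusted p = 0.580). Mmp2, a gelatinase with 6266 ± 141 and 4389 ± 98.8 normalized counts, was lower too (log2 fold change -0.51, adjusted p = 2.69e-05). Adamts1, which cleaves proteoglycans and nidogens, had 2966 ± 34.6 and 4278 ± 66.1 normalized counts (log2 fold change 0.53, adjusted p = 1.65e-05). Mmp3, stromelysin-1, which cuts laminin, nidogen and perlecan, had a log2 fold change of 0.78 (adjusted p = 0.00332). Mmp9, a gelatinase that degrades collagen IV, had 51, 59 and 40 counts in control and 22, 12 and 23 in D-gal libraries (log2 fold change -1.03, adjusted p = 0.0220). Plau, the urokinase that starts the plasmin cascade, had 761 ± 60.2 and 403 ± 26.7 normalized counts (log2 fold change -0.92, adjusted p = 1.19e-04).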

How the data were processed

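RNA-seq was compared between 3 control and 3 D-gal libraries of NOR-10 cells. Group and replicate were read from the sample titles, dose and duration from the study's methods. The authors trimmed the reads, and HISAT2 (version 2.0.4) is named in the submitters' processing notes. The counting tool, its strand setting, the annotation and the statistical test are not given in the sources used here, and methods and labels name different library kits, and the labels were followed. The deposited table gives a count per gene and library, without normalization, and an FPKM value, for which the authors divided the counts by a gene length and the library total. Of the 31 members, 28 have the same start and end in GENCODE M21 (GRCm38).

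After filterByExpr and TMM scaling, counts were tested in edgeR (version 4.0.16, under R 4.3.3) by the quasi-likelihood test without covariates, with Benjamini-Hochberg adjustment over all genes tested. Calls used an adjusted p-value under 0.05, alone or with a change of 2-fold or more. Standard errors (SE) were derived from the log2 fold change and its F statistic. FPKM values served for shares and sums of chains. Single values were compared by exact permutation of the libraries (two-sided).

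The members, the related genes and the marker lists were chosen with earlier results of these data known. All members are accounted for. Library counts are given for members past the adjusted p-value, and of the related genes the 4 highest and 4 lowest log2 fold changes among those past it are named. Pomt1, Pomt2, P4ha1, P4ha2, Plod2, Plod3, P3h1, P3h2 and Pxdn, the laminin beta chains, Frem1 and Dag1 were described in more detail after their values were seen. Mmp2, Timp1, Timp2 and Timp3 were added in the same way. Of the 72 related genes, 2 were matched by identifier. Functions were tested on simulated data. Replicates of a group differed by more than sampling noise (chi-square over its degrees of freedom 6.00 to 9.42). Alternatives were DESeq2 (version 1.42.0), RLE size factors, no filter, a minimum of 10 counts per library, a replicate block, each replicate left out, limma (version 3.58.1) on log2(FPKM + 1) and with a pseudocount of 0.1, glmTreat, other thresholds, and shares from merged exon lengths.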

Additional observations from a re-analysis of the deposited data

How the results depend on the processing

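The direction of each of the 15 called members held under every alternative run, and of the alternative values of the members' log2 fold changes 288 kept their side of the threshold, 9 lost and 1 gained a call. Col18a1 lost its call with the replicate block (adjusted p = 0.050), in limma (0.0696 and 0.0796) and without most single replicates, Lama2 lost it in limma with a pseudocount of 1 (0.0765), and Dag1 gained it without control replicate 1. All 122 alternative values of the differences in chain share moved by less than the spread between replicates. The number of members past both criteria was 4, and 3 to 4 with a replicate left out. It was 0 in limma on log2(FPKM + 1), where no log2 fold change reached 1 in size (largest 0.888, also 0 at an unadjusted p under 0.05) because the pseudocount shrinks low genes, and 1 (Col15a1) in glmTreat, which asks whether the change exceeds 2-fold. DESeq2 gave 4. The members past the adjusted p-value alone numbered 14 to 15 with a replicate left out, and the related genes 31 to 35. Of all genes tested, 564 passed both criteria, 491 to 572 with a replicate left out, 120 in limma, 95 in glmTreat, 4661 by the adjusted p-value alone and 383 when at least 10 counts were required in every library. Same-numbered libraries did not deviate together (correlations across genes -0.0114, -0.00269 and 0.0277), so no pairing by number was seen. A pairing that touches few genes would not show in these values. With the replicate block 530 of all genes, 4 members past both criteria, 14 by the adjusted p-value and 34 related genes were called. Depth limits the 8 untested members and Col15a1, Lama1 and Lama2, and the number of libraries limits every p from the permutation test.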
